A study of Arabidopsis thaliana with 8 samples.

Results

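The comparison described here is that of pwr-2 mutant seedlings with wild-type Col-0 seedlings of Arabidopsis thaliana at 27°C, and it rests on 4 of the 8 RNA-seq libraries of the study. The study asked how the loss of POWERDRESS (PWR) alters the seedling transcriptome at a raised temperature. Seedlings of both genotypes were raised under short days of 8 hours of light and 16 hours of darkness at 23°C, and at 6 days of age part of them was moved to 27°C for 2 hours. The 4 groups of the study were pwr-2 at 27°C, Col-0 at 27°C, pwr-2 at 23°C and Col-0 at 23°C, with 2 biological replicates each of about 100 whole seedlings. The members were chosen by their labels, as both mutant and both wild-type replicates at the higher temperature, and all genes were then described by function and by how the replicate pairs agreed. pwr-2 is a T-DNA insertion allele in the Col-0 background, so the mutant is represented by a single allele, and all groups share the Col-0 ecotype.

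PWR is a protein with a SANT domain that acts together with the histone deacetylase HDA9. Histone deacetylases remove acetyl groups from histone tails, a change that usually goes with lower transcription of the gene concerned. Arabidopsis responds to warm temperatures below heat stress with elongation growth, in which the transcription factor PIF4 and the auxin synthesis gene YUC8 are central.

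The total number of counted fragments was 13220834 and 10009884 in pwr-2 and 14067321 and 15338955 in Col-0 at 27°C. Genes encoded in the chloroplast and mitochondria took 3.30% and 2.12% of the counts in pwr-2, against 1.28% and 0.397% in Col-0, so both mutant libraries lay above both wild-type libraries. Levels are given as CPM, counts scaled to 1e6 per library with sizes adjusted by edgeR's TMM method. Pair 1 and pair 2 are the differences in log2 CPM, pwr-2 minus Col-0, within replicate 1 and within replicate 2. A gene was called where edgeR's quasi-likelihood test, with the replicate number as a block, gave a Benjamini-Hochberg adjusted p under 0.05. Fold changes are log2 values with the standard errors of that blocked fit, over 2 replicates a group. In whole seedlings, fewer cells of a type and less RNA per cell cannot be told apart.

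At 27°C, 202 of 19324 genes tested passed the threshold, which is 1.05%. Of these, 160 were higher in pwr-2 (0.828% of the genes tested) and 42 were lower (0.217%). The genes that rose included members of the lists of anthocyanin synthesis, salicylic acid and camalexin defence, the abscisic acid response and sugar transport, and 31 of them belonged to the chloroplast genome and 2 to that of the mitochondria. The genes that fell were all nuclear and included ferritins, ferric reductases and bHLH factors of growth. The lowest adjusted p was 0.0217, so the calls lay close to the threshold, and 0 genes passed an adjusted p under 0.01. At an unadjusted p under 0.05, 1677 genes were higher (8.68%) and 1579 lower (8.17%). These shares are the background for the list counts at an unadjusted p given below. The count depended on the fit: without the replicate block 0 genes passed, with upper-quartile normalization 0 passed, and with DESeq2 and the block 570 were higher (2.91%) and 355 lower (1.81%). Without pwr-2 replicate 1 the count was 4, without pwr-2 replicate 2 it was 18, without Col-0 replicate 1 it was 1684 and without Col-0 replicate 2 it was 208. The fits that leave out a library had no block, and the lone library of a group was assumed to vary like the other group.

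The replicate pairs agreed in direction for 12375 of 19324 genes (64.0%). Across genes, which are not independent replicates, the differences in pair 1 and pair 2 had Pearson's r of 0.525 and Spearman's rho of 0.437, and of 4 equal groups of genes by mean CPM the lowest had an r of 0.463 and the highest one of 0.664. Pair 2 had the wider spread, with a median absolute difference of 0.48 against 0.32 in pair 1. In pair 1, 1390 genes were more than 2-fold higher in pwr-2 and 945 more than 2-fold lower, and in pair 2 the counts were 2453 and 2191. More than 2-fold differences in both pairs were higher for 861 genes (4.46%), lower for 558 (2.89%) and opposite for 111. All 202 genes that passed the threshold changed the same way in both pairs, and for each of them the pwr-2 and Col-0 libraries did not overlap. Libraries also did not overlap for 19.9% of all genes tested with pwr-2 above Col-0, and for 20.2% with pwr-2 below, so this alone does not set the called genes apart.

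**Figure D1:**
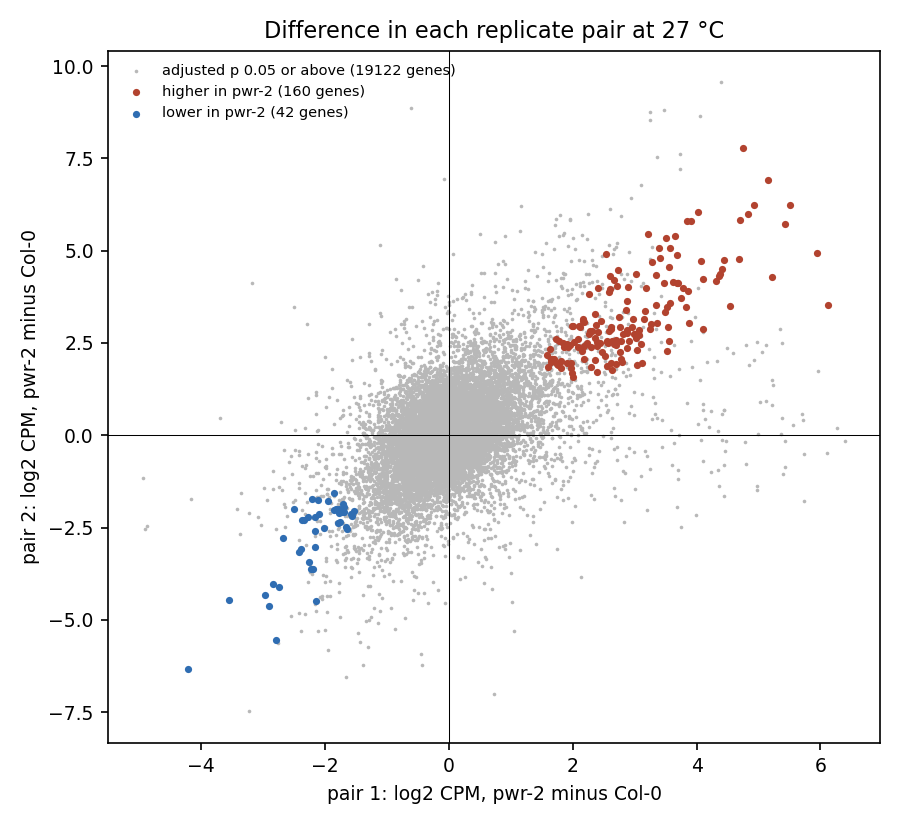
Log2 CPM of pwr-2 minus that of Col-0 at 27°C in replicate pair 1 (horizontal axis) and pair 2 (vertical axis), 1 point per gene for the 19324 genes tested. The 160 genes higher in pwr-2 lie in the upper right and the 42 lower genes in the lower left, and most genes not called lie around 0.

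PWR itself (AT3G52250, chr3:19376138-19383369, plus strand, TAIR10.1) had 11.9 and 20.1 CPM in the pwr-2 libraries, against 43.1 and 81.7 CPM in the Col-0 libraries. Both mutant libraries were below both wild-type libraries, and the change was -1.95 ± 0.26 (adjusted p = 0.0376). Reads of PWR therefore remained in the mutant, and a count over the whole gene does not show which side of the insertion they came from. At 23°C PWR had 15.5 and 11.3 CPM in pwr-2 and 57.1 and 75.3 CPM in Col-0. Of 16 tested genes on the list of PWR and histone deacetylases, PWR was the only member called. HDA9 had 11.8 and 15.3 CPM in pwr-2, against 13.9 and 12.1 CPM in Col-0, and the libraries overlapped.

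Of the genes of the warm response, PIF4, which encodes the bHLH factor that drives elongation, had 117 and 85.3 CPM in pwr-2, against 127 and 97.1 CPM in Col-0. The libraries overlapped and the difference was -0.17 ± 0.27 (adjusted p = 0.832). YUC8 had 2.89 and 2.44 CPM in pwr-2, against 2.32 and 3.105 CPM in Col-0, a difference of -0.03 ± 0.47 (adjusted p = 0.985). The florigen gene FT was too low to be tested, with 1 and 0 counts in pwr-2 and 0 and 0 counts in Col-0. HSP70 (AT3G12580), a cytosolic chaperone, had 753 and 497 CPM in pwr-2, against 442 and 223 CPM in Col-0. Both mutant libraries were above both wild-type libraries, but the difference of 0.95 ± 0.31 did not pass (adjusted p = 0.194). None of the 34 tested genes on the list of warm growth and auxin passed the threshold in edgeR, and by DESeq2 0 were higher and 2 lower. At an unadjusted p under 0.05, 2 were higher and 10 lower, against 8.68% and 8.17% of all genes. The list median was -0.27, with -0.17 in pair 1 and -0.37 in pair 2, against -0.01 over all genes. Genes of the SAUR family, small auxin-induced RNAs linked to cell expansion, had a median of -0.97 over 40 tested members. The pair medians were -0.60 and -1.25, and 0 members passed the threshold, while 16 were lower and 1 higher at an unadjusted p under 0.05.

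The 9 genes of the list of H2A.Z histones and the SWR1 complex, which deposits H2A.Z in nucleosomes, also gave 0 calls in edgeR and 0 in DESeq2, with 0 higher and 1 lower at an unadjusted p under 0.05. PIE1, its catalytic subunit, had 38.9 and 63.5 CPM in pwr-2, against 37.2 and 50.5 CPM in Col-0. ARP6 had a difference of -0.25 ± 0.28, the SWC6 gene SEF one of -0.80 ± 0.47, and the H2A.Z genes HTA9 and HTA11 had -0.46 ± 0.27 and 0.45 ± 0.33.

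Anthocyanins and flavonols are phenolic pigments made from chalcone, and in Arabidopsis seedlings the late steps are switched on by MYB and bHLH factors. On the list of flavonoid and anthocyanin synthesis, 7 of 27 tested genes rose and 0 fell, against 0.828% and 0.217% of all genes. The list median was 1.95, with 1.56 in pair 1 and 2.33 in pair 2. MYB90, a MYB activator of the pathway, had 27.3 and 6.50 CPM in pwr-2, against 0.290 and 0.0634 CPM in Col-0. Both mutant libraries were far above both wild-type libraries, and the change was 6.49 ± 0.47 (adjusted p = 0.0217). Its bHLH partner TT8 had 19.9 and 11.8 CPM in pwr-2, against 1.23 and 0.0634 CPM in Col-0. The libraries again did not overlap, and the change was 4.92 ± 0.68 (adjusted p = 0.0381).

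The called enzymes of the pathway lay at the first step and at later steps. TT4, the chalcone synthase that opens the pathway, had 1751 and 815 CPM in pwr-2, against 368 and 144 CPM in Col-0 (2.37 ± 0.32). TT7, the flavonoid 3'-hydroxylase, had 134 and 99.6 CPM in pwr-2, against 6.23 and 4.63 CPM in Col-0 (4.41 ± 0.30). UGT75C1, an anthocyanin glucosyltransferase, had 183 and 135 CPM in pwr-2, against 15.9 and 3.17 CPM in Col-0 (4.41 ± 0.53). All 3 genes were higher in each mutant library than in either wild-type library. The glucosyltransferase UGT78D2 and the flavonol synthase FLS1 rose by less, with changes of 1.95 ± 0.28 and 1.82 ± 0.27, FLS1 being the called list member outside the naming rule and added after its values were seen. Outside the list, and chosen after their values were seen, the chalcone isomerase-like gene CHIL (2.16 ± 0.30) and the HXXXD-type acyltransferase genes AT1G03940 (2.75 ± 0.28) and AT1G03495 (2.38 ± 0.27) also rose.

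**Figure D2:**
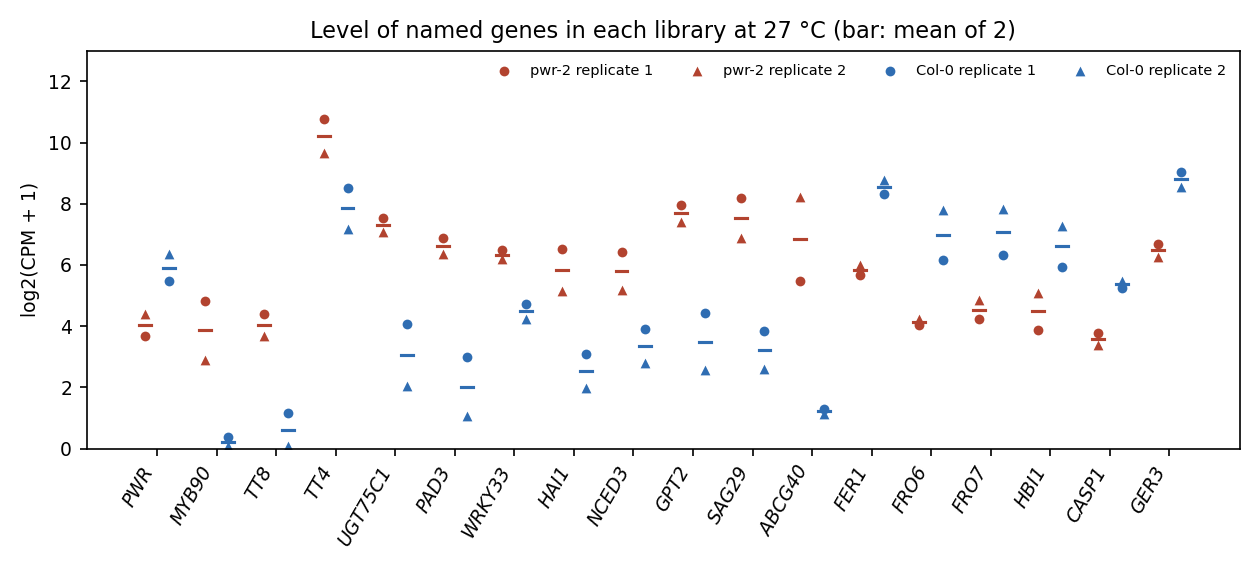
Level of 18 named genes at 27°C as log2(CPM + 1), with pwr-2 left of Col-0 for each gene. Circles are replicate 1, triangles are replicate 2 and bars are means of 2 libraries; no gene shown has overlapping groups, and PWR, FER1, FRO6, FRO7, HBI1, CASP1 and GER3 are lower in pwr-2.

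Salicylic acid is the hormone of defence against biotrophic pathogens, and its action is read from PR genes. On the list of salicylic acid and PR genes, 5 of 33 tested rose and 0 fell, against 0.828% and 0.217% of all genes. The list median was 1.57 (0.63 in pair 1 and 1.79 in pair 2). BGL2, the PR2 gene for a secreted beta-1,3-glucanase, had 116 and 88 counts in pwr-2, against 1 and 0 counts in Col-0. The ratio of the summed and scaled counts was 260-fold, with an exact 95% interval of 46.2 to 10330 that covers counting error only (adjusted p = 0.0315). PBS3, an enzyme of salicylic acid synthesis, had 9.67 and 11.4 CPM in pwr-2, against 0.942 and 1.14 CPM in Col-0 (3.31 ± 0.40). EDS5, which exports a salicylic acid precursor from the plastid, changed by 2.32 ± 0.32. The receptor-like protein gene RLP23 changed by 3.96 ± 0.57, and PNP-A, a secreted peptide, had 56 and 69 counts in pwr-2 against 3 and 1 counts in Col-0, a ratio of 39.9 (exact 95% interval 15.2 to 149). All of these were higher in both mutant libraries than in either wild-type library.

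Camalexin is the indole phytoalexin of Arabidopsis, and PAD3 encodes the P450 of its last step. PAD3 had 117 and 81.9 CPM in pwr-2, against 6.96 and 1.08 CPM in Col-0, a change of 5.004 ± 0.57 (adjusted p = 0.0323). WRKY33, a factor that activates PAD3 after infection, had 89.0 and 71.7 CPM in pwr-2, against 25.3 and 18.0 CPM in Col-0, a change of 1.89 ± 0.26 (adjusted p = 0.0381). For both genes the mutant libraries lay above the wild-type libraries. The glutathione transferase genes GSTF6 and GSTF7 lie next to each other on chromosome 1. GSTF6 had 701 and 436 CPM in pwr-2, against 131 and 27.4 CPM in Col-0, and GSTF7 had 467 and 362 CPM in pwr-2, against 101 and 43.2 CPM in Col-0. Their sequences are similar, so reads may be divided between them and the separate changes of 3.19 ± 0.47 and 2.62 ± 0.36 are uncertain. In all, 2 of 17 tested genes of the camalexin list rose and 0 fell, against 0.828% and 0.217% of all genes. The list median was 1.55, and 10 members were higher by DESeq2, against 2.91% of all genes. Over the family of glutathione transferases, 3 of 41 tested rose, against 0.828% of all genes, GSTU12 (3.11 ± 0.40) being the other.

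The promoters of WRKY33 and GSTF7 are shown because they hold repeated W-boxes, the sites of WRKY factors, in the bases just before the annotated gene start. W-boxes (TTGACC or TTGACT, either strand) are in capitals, the strand is that of the gene, and sequence and gene starts are from the TAIR10.1 assembly of RefSeq.
WRKY33, chr2:16108105-16108234, plus strand: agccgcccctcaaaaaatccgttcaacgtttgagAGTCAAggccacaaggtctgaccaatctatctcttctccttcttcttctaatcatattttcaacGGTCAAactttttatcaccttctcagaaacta
GSTF7, chr1:659981-660140, minus strand: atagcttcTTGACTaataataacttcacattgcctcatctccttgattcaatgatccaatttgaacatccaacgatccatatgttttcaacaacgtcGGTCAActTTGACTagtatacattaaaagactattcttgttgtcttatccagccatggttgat
The WRKY33 stretch holds 2 W-boxes and the GSTF7 stretch 3. The motif is common: 34.6% of the 127 promoters of nuclear genes that rose held at least 1, against 32.6% of the 19228 promoters of tested nuclear genes in the annotation.

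Among the 15 largest rises were also AOX1D, an alternative oxidase of the mitochondria, with 20.8 and 18.23 CPM in pwr-2 against 0.435 and 0 CPM in Col-0, and the secreted lipase GLIP1 with 16.8 and 9.66 CPM against 0.435 and 0 CPM. ABCG40, a transporter that imports abscisic acid, had 43.2 and 298 CPM in pwr-2, against 1.45 and 1.204 CPM in Col-0 (6.45 ± 0.80). The mutant libraries of ABCG40 differed widely from each other but both were above the wild-type libraries. The largest fitted value was that of AT1G30190, annotated as a cotton fiber protein, with 127 and 18 counts in pwr-2 against 0 and 0 counts in Col-0, which is at least 29.8-fold higher against a floor of 3 counts per library. The other largest rises included MBP1, a myrosinase-binding protein (5.53 ± 0.47), the beta-glucosidase gene BGLU27 (5.38 ± 0.53) and the cupredoxin gene AT2G15780 (6.32 ± 0.76). Others were near 0 in Col-0. The acetyltransferase gene NATA1 had 77 and 44 counts in pwr-2 against 2 and 0 in Col-0, a ratio of 77.2 (exact 95% interval 20.9 to 645). The PAR1 gene AT5G52390 had 162 and 127 counts in pwr-2 against 2 and 0 in Col-0, a ratio of 184 (50.6 to 1530), and the wall-associated kinase WAK3 had 26 and 47 against 1 and 1, a ratio of 46.6 (12.4 to 392).

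Only 1 or 2 members of each wider hormone and transcription factor list passed the threshold, against 0.828% of all genes higher and 0.217% lower. DESeq2 called 2.91% of all genes higher and 1.81% lower. At an unadjusted p under 0.05, 11 stress WRKY genes were higher and 2 lower, and 11 rapid stress genes higher and 0 lower. For jasmonate these counts were 17 and 0, and for the ethylene list 3 and 1, against 8.68% and 8.17% of all genes. On the list of stress WRKY factors only WRKY33 was called among 27 tested (median 1.24), and DESeq2 called 6. The zinc-finger gene RHL41, which encodes ZAT12, was the only call among 26 rapid stress factors, with 20.0 and 43.0 CPM in pwr-2 against 3.99 and 6.27 CPM in Col-0. JAZ1, a repressor of jasmonate signalling, was the only call among 30 jasmonate genes (2.18 ± 0.29), and DESeq2 called 7. The ethylene synthesis genes ACS2 (3.47 ± 0.46) and ACS6 (1.90 ± 0.27) rose, while their list of 16 tested genes had a median of -0.12 with pairs of 0.39 and -0.31. The calcium sensor gene CML37 rose by 4.78 ± 0.46. CYP81F2, a P450 of indole glucosinolate modification, had 31.8 and 17.7 CPM in pwr-2, against 5.94 and 2.09 CPM in Col-0 (2.72 ± 0.32).

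Abscisic acid is the hormone of water deficit, and clade A protein phosphatases are both its targets and its brakes. On its list, 5 of 38 tested genes rose and 0 fell in edgeR, against 0.828% and 0.217% of all genes. In DESeq2 19 rose and 0 fell, against 2.91% and 1.81% of all genes. The list median was 1.36, and the pairs were nearly equal at 1.41 and 1.39. NCED3, the enzyme that limits abscisic acid synthesis under stress, had 84.9 and 35.4 CPM in pwr-2, against 14.1 and 5.96 CPM in Col-0 (2.57 ± 0.26, adjusted p = 0.0315). HAI1, a clade A phosphatase, had 90.3 and 34.1 CPM in pwr-2, against 7.61 and 2.91 CPM in Col-0 (3.54 ± 0.28, adjusted p = 0.0233). In both genotypes replicate 1 was the higher one for these genes, and the pair differences of HAI1 were 3.52 and 3.48. KIN1 (3.52 ± 0.37), a dehydration-induced gene with a close relative beside it that could share its reads, the homeobox gene HB-12 (2.197 ± 0.29) and the galactinol synthase GolS2 (2.99 ± 0.45) rose as well. Outside the list, the lipid transfer gene LTP4 (3.94 ± 0.31) rose, as did PP2CA (1.87 ± 0.29), AFP1 (2.61 ± 0.27) and MAPKKK18 (3.45 ± 0.49), genes of the abscisic acid response that were picked after their values were seen. PYL4, an abscisic acid receptor that is also outside the list and was picked in the same way, fell, with 21.6 and 15.2 CPM in pwr-2 against 73.9 and 79.5 CPM in Col-0 (-2.09 ± 0.29).

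The genes of sugar transport and storage did not move together as a list. Of 25 tested, 4 rose and 0 fell, against 0.828% and 0.217% of all genes. SAG29, which encodes the sucrose exporter SWEET15, had 294 and 118 CPM in pwr-2, against 13.5 and 5.07 CPM in Col-0 (4.48 ± 0.32, adjusted p = 0.0217). GPT2, a plastid glucose 6-phosphate translocator induced by sugar, had 249 and 169 CPM in pwr-2, against 20.6 and 4.88 CPM in Col-0 (4.32 ± 0.47, adjusted p = 0.0315). For both genes the mutant libraries were several times above the wild-type libraries. APL4, a subunit of the enzyme that commits glucose to starch, changed by 3.60 ± 0.48, and the sugar transporter gene SWEET4 by 3.41 ± 0.47. The list median was 0.08. At an unadjusted p under 0.05, 9 members were higher and 9 lower, against 8.68% and 8.17% of all genes. On the list of darkness, starvation and senescence, SAG29 and the beta-glucosidase gene DIN2 (3.95 ± 0.29) were the calls among 33 genes, with pair medians of 0.37 and -1.08.

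Of 26 tested heat-shock protein genes, ATHSP22.0, a small heat-shock protein of the endoplasmic reticulum, was the only call. It had 5.87 and 5.33 CPM in pwr-2, against 0.435 and 0.317 CPM in Col-0 (3.86 ± 0.53, adjusted p = 0.0377). The list median was 0.95, with 0.39 in pair 1 and 1.38 in pair 2. At an unadjusted p under 0.05, 11 genes were higher and 1 lower, against 8.68% and 8.17% of all genes. None of the 16 ER chaperone genes passed in edgeR or in DESeq2, with 2 higher and 0 lower at an unadjusted p under 0.05.

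The lists of this paragraph had 0 to 2 calls each, against 0.828% of all genes higher and 0.217% lower. The sulfate list of 24 tested genes had 1 call in each direction, the beta-glucosidase BGLU28 (3.91 ± 0.59) and SBP3, and the phosphate list of 20 had PS2 (3.41 ± 0.50). The glucosinolate list of 35 had MBP1 and CYP81F2, and the list of surface immune receptors and their early output, with 33, had CYP81F2 and WAK3. At an unadjusted p under 0.05, 13 sulfate genes were higher and 1 lower, and 10 phosphate genes higher and 3 lower. For glucosinolates these counts were 8 and 1, and for surface immune receptors 13 and 1. The 26 tested cysteine-rich receptor kinases had 0 calls in edgeR, with counts of 12 and 4. The shares over all genes were 8.68% and 8.17%. For lists without a call the members of highest level are given as examples. The photoreceptor gene PHYB averaged 114.4 CPM in pwr-2 and 113.6 CPM in Col-0, and the clock genes PRR7 and GI differed by -0.49 ± 0.30 and 0.17 ± 0.29. The flowering repressor gene SVP differed by 0.09 ± 0.27, the chaperone gene BIP1 by 0.28 ± 0.29, the histone gene HTB4 by 0.62 ± 0.31 and the small subunit of Rubisco, RBCS1A, by -0.29 ± 0.36, all within about 2 standard errors of 0. In the list of histones and cell division 37 of 41 tested genes had a fold change above 0, with pair medians of 0.02 and 0.93, 0 calls in edgeR and DESeq2 and 3 genes at an unadjusted p under 0.05. The embryo gene LEA4-5 averaged 122 CPM in pwr-2 and 7.10 CPM in Col-0, a difference of 3.77 ± 0.63 that did not pass (adjusted p = 0.0568). CRA1 and CRU3, on the same list of seed storage and oil body genes, differed by -0.64 ± 1.25 and -1.49 ± 1.19. The 13 tested genes of that list had pair medians of 1.74 and -1.14, with 4 higher and 4 lower at an unadjusted p under 0.05.

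**Figure D3:**
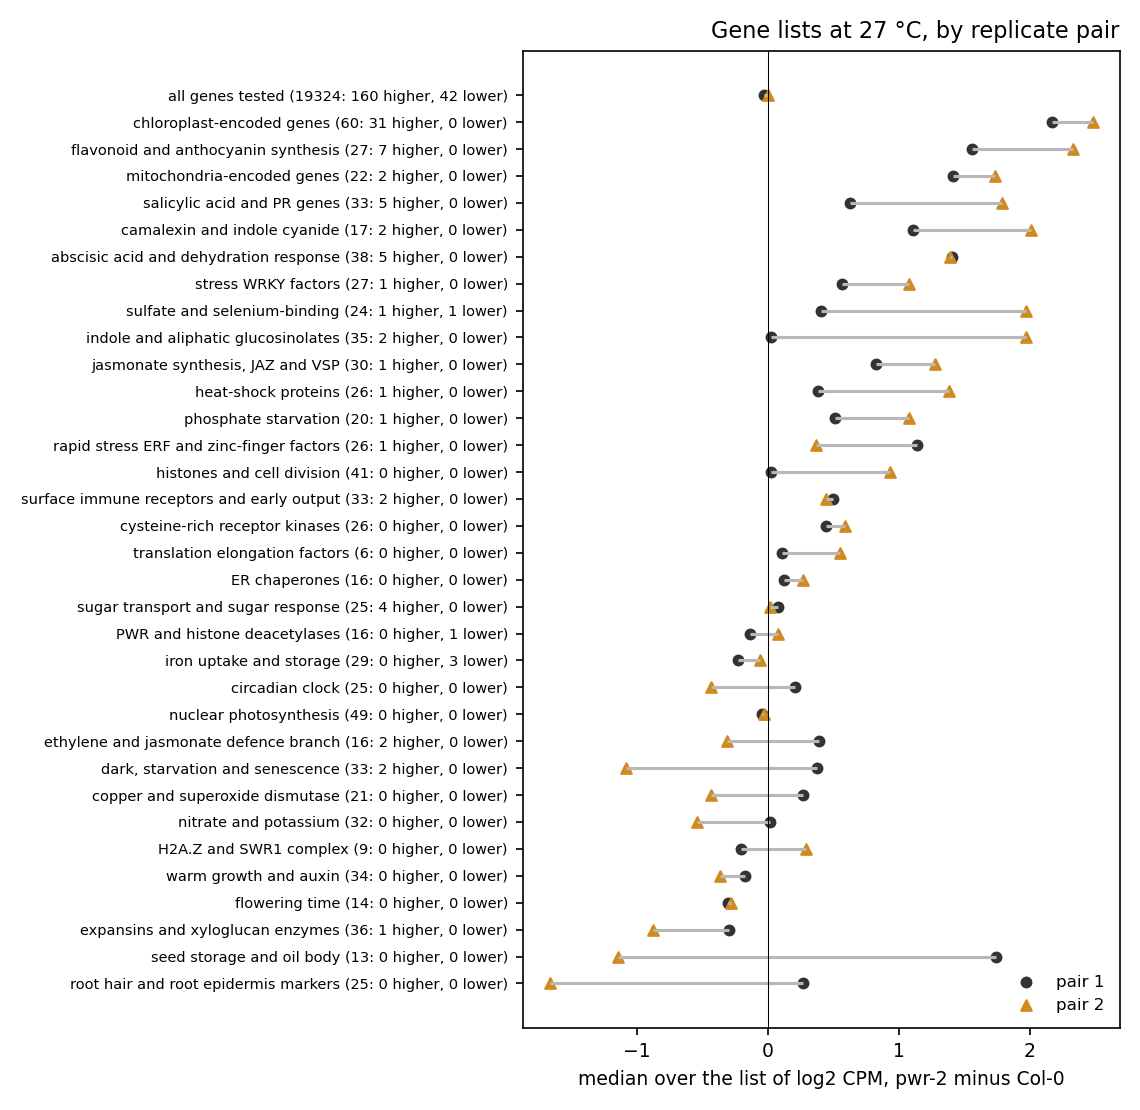
Median difference in log2 CPM, pwr-2 minus Col-0, over each gene list at 27°C, in pair 1 (circles) and pair 2 (triangles), with the number of genes tested and called beside each list name. The chloroplast, flavonoid, mitochondrial, camalexin and abscisic acid lists lie above 1 in both pairs, while several lists, root hair and seed storage among them, have opposite signs in the pairs.

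Iron is stored in plastids by ferritin and is reduced at membranes by ferric reductase oxidases. On the list of iron uptake and storage, 3 of 29 tested genes fell and 0 rose, against 0.217% and 0.828% of all genes, while the list median was 0.01. DESeq2 called 3 members higher and 4 lower, and 4 were higher and 7 lower at an unadjusted p under 0.05. FER1, a ferritin of leaves, had 49.6 and 63.3 CPM in pwr-2, against 316 and 437 CPM in Col-0. Both mutant libraries were below both wild-type libraries, and the change was -2.74 ± 0.30 (adjusted p = 0.0315). FER3 had 8.76 and 27.2 CPM in pwr-2, against 34.1 and 93.2 CPM in Col-0 (-1.88 ± 0.26). The vacuolar iron transporter gene AT3G25190 had 9.43 and 14.5 CPM in pwr-2, against 43.7 and 47.8 CPM in Col-0 (-1.97 ± 0.28). For FER3 as well as for AT3G25190 no mutant library reached the lowest wild-type library.

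Outside the list, FRO6 and FRO7, ferric reductases of the shoot of which FRO7 acts in the chloroplast, were also lower and were among the 15 largest falls. FRO6 had 15.3 and 17.9 CPM in pwr-2, against 71.0 and 220 CPM in Col-0 (-2.93 ± 0.42), and FRO7 had 17.7 and 28.2 CPM in pwr-2, against 78.7 and 227 CPM in Col-0 (-2.60 ± 0.34). In both genes Col-0 replicate 2 was well above Col-0 replicate 1, and both were above the mutant. The genes are neighbours on chromosome 5 with similar sequences, so reads may be shared. The 3 promoters with a G-box (CACGTG) among the 42 genes that fell were those of FER3, FRO6 and FRO7, and they are shown for that reason, with the G-box in capitals and the strand of the gene.
FER3, chr3:20816036-20816165, minus strand: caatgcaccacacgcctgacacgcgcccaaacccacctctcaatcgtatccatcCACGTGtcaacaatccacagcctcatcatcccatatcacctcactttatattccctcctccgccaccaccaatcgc
FRO6, chr5:20204596-20204725, minus strand: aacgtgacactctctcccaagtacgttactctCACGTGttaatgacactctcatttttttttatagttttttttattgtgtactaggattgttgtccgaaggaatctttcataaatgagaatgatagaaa
FRO7, chr5:20208778-20208907, minus strand: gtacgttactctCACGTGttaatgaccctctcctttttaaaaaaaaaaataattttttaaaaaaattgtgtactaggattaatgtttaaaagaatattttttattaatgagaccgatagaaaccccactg
The G-boxes of FRO6 and FRO7 lie in a run of 29 bases that their promoters share. A G-box was present in 7.14% of the promoters of genes that fell, 15.7% of those of nuclear genes that rose and 9.02% of all tested nuclear genes, so the share among the lower genes is no higher than in the background.

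Genes of cell growth were few among the calls. The bHLH factors HBI1 and BEE2, which promote cell elongation downstream of brassinosteroids, fell, BEE2 being picked after its values were seen. HBI1 had 13.6 and 33.0 CPM in pwr-2, against 60.6 and 153 CPM in Col-0 (-2.19 ± 0.27, adjusted p = 0.0330). BEE2 had 18.0 and 16.5 CPM in pwr-2, against 56.1 and 95.4 CPM in Col-0 (-2.09 ± 0.32, adjusted p = 0.0466). In HBI1 replicate 2 was the higher one in each genotype, and in neither gene did the groups overlap. The germin-like gene GER3 had 102 and 76.5 CPM in pwr-2, against 520 and 377 CPM in Col-0. Of 36 tested expansin and xyloglucan enzyme genes, EXPA16 (5.20 ± 0.41) rose and 0 fell, with a median of -0.56 (-0.30 and -0.88 in the pairs). DESeq2 called 3 of them higher and 4 lower, and at an unadjusted p under 0.05 there were 4 higher and 12 lower. BRU6, an auxin-conjugating enzyme of the GH3 family that was also picked after its values were seen, had 54.6 and 46.5 CPM in pwr-2, against 7.25 and 4.25 CPM in Col-0 (3.16 ± 0.30).

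The following genes that fell were picked after their values were seen, and no list of root endodermis genes was made. CASP1 encodes a protein of the platform on which the root endodermis lays down the lignin of its Casparian strip. CASP1 had 12.6 and 9.57 CPM in pwr-2, against 37.2 and 43.8 CPM in Col-0 (-1.89 ± 0.29, adjusted p = 0.0467). The uclacyanin gene UCC1 had 10.6 and 4.60 CPM in pwr-2, against 34.1 and 18.0 CPM in Col-0 (-1.83 ± 0.28). The dirigent-like gene AT2G39430 changed by -1.80 ± 0.26, the peroxidase genes AT4G30170 and AT3G01190 by -2.06 ± 0.29 and -1.71 ± 0.26, and BOR1, the exporter that loads boron into the xylem, by -1.81 ± 0.28. None of these had overlapping groups. Other peroxidases rose. By words of the annotation, 71 class III peroxidases were tested, and AT4G30170 was not among them. Of these, 3 were higher and 1, AT3G01190, was lower, against 0.828% and 0.217% of all genes. PRX52 had 18.9 and 9.93 CPM in pwr-2, against 0.942 and 0.380 CPM in Col-0 (4.46 ± 0.41), and AT5G06730 changed by 4.37 ± 0.65. The third to rise, AT5G19880, had 59 and 43 counts in pwr-2 against 2 and 0 in Col-0, a ratio of 65.1 (exact 95% interval 17.56 to 545). The 25 tested root hair and root epidermis markers gave 0 calls in edgeR and in DESeq2. At an unadjusted p under 0.05, 0 were higher and 2 lower, against 8.68% and 8.17% of all genes. The list median was 0.27 in pair 1 and -1.67 in pair 2, so the root markers differed in direction between the pairs. Whether the share of root in the samples had a part in these values was not tested.

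The largest falls were those of AT4G36850, a PQ-loop family gene, with 0.413 and 0.542 CPM in pwr-2 against 10.15 and 55.3 CPM in Col-0 (-5.81 ± 0.53), and of the leucine-rich repeat gene AT2G15880, with 1.16 and 4.60 CPM in pwr-2 against 8.77 and 219 CPM in Col-0 (-4.51 ± 0.67). SBP3, a selenium-binding protein, had 0.331 and 0.542 CPM in pwr-2, against 5.44 and 15.02 CPM in Col-0 (-4.45 ± 0.49). In all 3 the wild-type libraries also differed, with replicate 2 the higher, most of all in AT2G15880. The others of the 15 largest falls included the NPH3 family gene DOT3 (-3.98 ± 0.57), CYP71B12 (-3.81 ± 0.48), the AP2/ERF gene AT5G61590 (-3.50 ± 0.40), the carboxypeptidase-like gene SCPL13 (-2.98 ± 0.41), CXXS1 (-2.98 ± 0.37) and the protease inhibitor gene UPI (-2.85 ± 0.31).

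Of 60 tested chloroplast-encoded genes, 31 rose and 0 fell, against 0.828% and 0.217% of all genes. All 60 had a fold change above 0, with a median of 2.21 (2.17 in pair 1 and 2.48 in pair 2). Of 22 tested mitochondrial genes 2 rose, ATMG00090 (2.62 ± 0.27) and ATMG00080 (2.37 ± 0.35), and the median was 1.66. The chloroplast gene with the largest change was ATCG00140 (3.46 ± 0.34), with a mean of 103 CPM in pwr-2 against 10.6 CPM in Col-0. The share of organelle counts, given above, was higher in both mutant libraries at 27°C. At 23°C it differed far more between replicates than between genotypes, with 6.49% and 0.0374% in pwr-2 and 6.77% and 0.296% in Col-0. All 33 called organelle genes were higher in replicate 1 than in replicate 2 of Col-0 at 23°C, 32 of them by more than 2-fold. Of 49 tested nuclear genes of photosynthesis, 0 passed in edgeR and in DESeq2, 0 were higher and 1 lower at an unadjusted p under 0.05, and the median was -0.07. With organelle genes removed before normalization, 116 nuclear genes were higher and 33 lower, and all 149 were among the 202.

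Promoters from 250 bases before to 50 bases after the gene start were searched on both strands for 8 short motifs. The heat-shock element GAANNTTC was present in 24.4% of the 127 promoters of nuclear genes that rose and in 9.52% of the 42 of genes that fell, against 11.4% of all 19228. PNP-A is shown as an example with 2 such elements, in capitals.
PNP-A, chr2:8091737-8091956, minus strand: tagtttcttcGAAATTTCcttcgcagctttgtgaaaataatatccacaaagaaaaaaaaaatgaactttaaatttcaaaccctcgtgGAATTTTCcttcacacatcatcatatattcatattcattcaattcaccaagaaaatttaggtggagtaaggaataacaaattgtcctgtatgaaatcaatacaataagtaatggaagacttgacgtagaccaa
The as-1 element TGACGT was present in 15.7% of promoters of genes that rose, 7.14% of those that fell and 9.81% of all, and the TATA box TATAAA in 59.8%, 59.5% and 51.5%. The evening element AAAATATCT was found in 3.15%, 7.14% and 3.02%, the GCC-box GCCGCC in 3.15%, 0% and 2.66%, and the CBF element GCCGAC in 2.36%, 0% and 3.73%. The GCC-box and the CBF element share the letters GCCG and can overlap, and a match is a run of letters and not a measured binding site. No test was made of these shares.

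**Figure D4:**
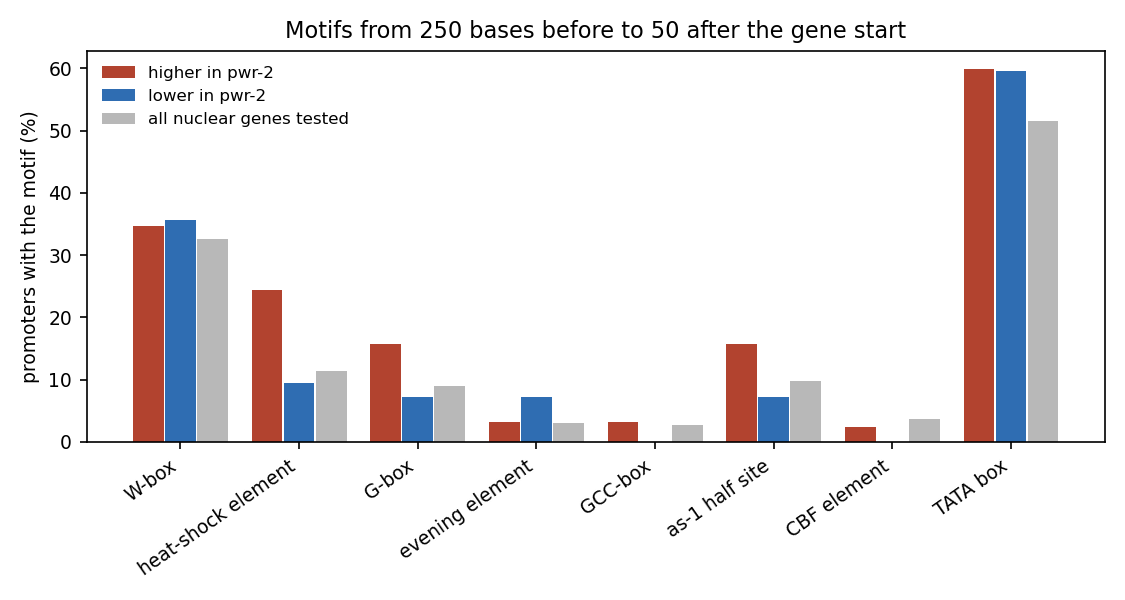
Share of promoters, in percent, that hold each of 8 motifs on either strand, for 127 nuclear genes higher in pwr-2, 42 genes lower in pwr-2 and all 19228 tested nuclear genes with an annotated start. The heat-shock element stands at 24.4% among the genes that rose and 11.4% among all.

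The same genotype comparison at 23°C gave 0 calls of 19170 genes in edgeR, with 868 genes (4.53%) at an unadjusted p under 0.05 and 48 calls by DESeq2. The difference between the genotype effects at 27°C and at 23°C, tested as an interaction over all 8 libraries, also gave 0 calls of 19936 genes in edgeR, with 915 (4.59%) at an unadjusted p under 0.05 and 25 calls by DESeq2. Without Col-0 replicate 2 at 23°C the interaction gave 223 calls. A difference between the temperatures is thus not shown for any single gene by edgeR with all libraries.

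The genes called at 27°C also varied between the Col-0 replicates at 23°C. All 127 nuclear genes that rose in pwr-2 at 27°C were higher in Col-0 replicate 1 than in Col-0 replicate 2 at 23°C, 125 of them by more than 2-fold, against 48.9% and 16.1% of all nuclear genes tested. MYB90, for example, had 2.17 and 0.195 CPM in pwr-2 at 23°C, against 94.0 and 0 CPM in Col-0 at 23°C. GPT2 had 156 and 47.5 CPM in pwr-2, against 923 and 9.03 CPM in Col-0, and PAD3 13.9 and 12.1 CPM in pwr-2, against 167 and 1.36 CPM in Col-0. In all 3 the highest of the 4 libraries at 23°C was Col-0 replicate 1 and the lowest Col-0 replicate 2. Of the 42 genes that fell, 41 were lower in Col-0 replicate 1 than in replicate 2 at 23°C. FER1 kept its order in all libraries, with 52.1 and 64.0 CPM in pwr-2 at 23°C against 204 and 322 CPM in Col-0 at 23°C. Over the 127 genes, the median of log2(CPM + 1), relative to each gene's mean over 8 libraries, was 1.57 and 1.04 in pwr-2 and -0.93 and -1.53 in Col-0 at 27°C, and -0.15 and -0.48 in pwr-2 and 1.66 and -1.53 in Col-0 at 23°C. At 23°C, 7 of the 127 were higher in pwr-2 in pair 1 and 119 in pair 2. The genes that separate the genotypes at 27°C are therefore also genes that differ between wild-type replicates in these data, and the source of that variation was not tested.

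**Figure D5:**
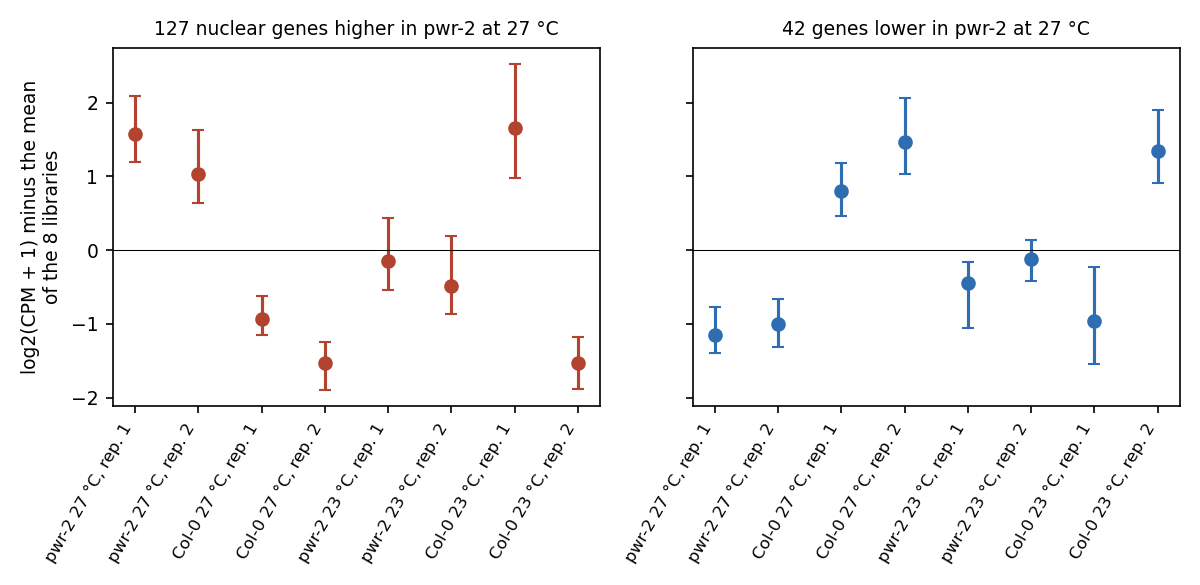
Median and quartiles over genes of log2(CPM + 1), relative to each gene's mean over the 8 libraries, for the 127 nuclear genes higher and the 42 genes lower in pwr-2 at 27°C. Replicate 1 of Col-0 at 23°C lies at 1.66 for the higher genes, near the pwr-2 libraries at 27°C, and replicate 2 at -1.53.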

How the data were processed

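RNA of whole seedlings was sequenced as paired-end reads. The authors removed ribosomal RNA reads with SortMeRNA, aligned the rest to TAIR10 with TopHat2 2.1.0 and Bowtie2 2.1.0, and counted fragments per gene with featureCounts 1.4.5, keeping those of which both reads were aligned. The strand setting and the annotation release are not given in the sources used here, so reads of overlapping or antisense genes cannot be told apart. The deposited values used are raw counts per gene, in a table per temperature. The deposited gene length was not needed for any printed value, and the deposited normalized table was not used.

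Genes were tested with edgeR 4.0.16 in R 4.3.3 (TMM, filterByExpr, quasi-likelihood test, Benjamini-Hochberg adjusted p under 0.05) on the 4 libraries at 27°C, with the replicate number as a block because the study's model accounts for a replicate batch. As a check of this pairing, the differences between replicates were correlated between groups over 19844 genes. Between temperatures r was 0.655 within Col-0 and 0.610 within pwr-2, and between genotypes it was lower, at 0.260 to 0.332. For the pairing that the block uses, Col-0 with pwr-2 at 27°C, r was 0.277. The standard error is the fold change divided by the square root of F. Log2 CPM used a prior count of 2. DESeq2 1.42.0 was an alternative. Nothing in the labels says more of the replicates than that they are biological. With the block, the p-values at 27°C rest on how far the 2 replicate pairs disagree, with variance information shared between genes. They do not measure the spread between replicates within a group. Total counts at 27°C were 10009884 to 15338955 per library, and the exact intervals of count ratios cover counting error only.

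Of 33602 identifiers, 32835 had an entry in TAIR10.1 of RefSeq, which gave symbols, positions and promoters. Of 929 list symbols, 25 had no single match. The genes, lists and families were chosen with earlier results of these data known. Genes were named by rule: PWR and genes the study discusses, the 15 largest nuclear rises and falls that went the same way in both pairs, and, per list or family, the called genes of lowest p (at most 5 and 3) or, for a list without calls, the 3 of highest mean CPM, of which examples are printed. Families were found by words of the annotation. Others are said to have been chosen after their values were seen. Scripts were tested on simulated data. Figures used matplotlib 3.10.9.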

Additional observations from a re-analysis of the deposited data

Results flagged for a closer look

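For 11 of the 202 genes called at 27°C, both pairs differed at 23°C in the direction opposite to that at 27°C. They were DAA1, RLP23, ELIP1, TT7, PBS3, the cutin gene DCF, 3 chloroplast and 2 mitochondrial genes. The interaction test gave an adjusted p of 0.948 for each of them, so the difference between temperatures was not shown. TT7 changed by 4.37 and 4.38 in the pairs at 27°C and by -2.67 and -0.06 at 23°C.

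The 22 tested mitochondrial genes had medians of 1.42 and 1.74 in the pairs at 27°C and of -0.59 and -0.74 at 23°C. At 23°C the share of organelle counts differed widely between replicates, with 6.49% and 0.0374% in pwr-2 and 6.77% and 0.296% in Col-0. Whether this had a part in the values of the organelle genes was not tested. The list of sugar transport and sugar response had medians of 0.0752 and 0.01 in the pairs at 27°C and of -0.47 and -0.51 in those at 23°C. For these lists the difference between temperatures was not tested.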

How the results depend on the processing

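Each of the 202 calls at 27°C kept its direction in every alternative in which the gene was tested. Because the groups of these genes did not overlap, the alternatives could hardly turn a sign, so the kept direction adds no support. The number of calls varied widely. The count was 925 with DESeq2 and the block (570 higher, 355 lower, 201 of them among the 202), 700 without a low-count filter (462 and 238), 380 under a minimum of 10 counts per library (245 and 135, with 158 of the 202 tested), and 0 (0 and 0) with upper-quartile normalization, with all 8 libraries in a single fit and at an adjusted p under 0.01. With no replicate block it was 0 (0 higher, 0 lower), with a lowest adjusted p of 0.153 among the 202 genes. DESeq2 size factors (246 calls) and nuclear genes alone (149) stayed within 1.5 times the count. Leaving out a library, without the block, gave 4 to 1684 calls, 4 to 916 higher and 0 to 768 lower. Alternatives added after seeing the data gave 652 calls for DESeq2 without the replicate block (395 higher, 257 lower) and 0 for nuclear genes alone with upper-quartile normalization. DESeq2 gave 48 calls at 23°C and 25 for the interaction, and leaving out a library gave 0 to 223 for the interaction. In edgeR both counts were 0 with and without the block. The cause of these shifts was not tested.

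Among genes not called, leaving out a library turned the sign of PIF4 (-0.41 to 0.074), YUC8 (-0.22 to 0.20), HDA9 (-0.12 to 0.22), PIE1 (-0.15 to 0.52), ARP6 (-0.47 to 0.00136) and HTA9 (-0.92 to 0.068). Of 359 list medians under the alternatives, 18 had the other sign. With 2 replicates a group, every call at 27°C lay between an adjusted p of 0.0217 and the threshold.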
